A study of Homo sapiens with 12 samples.

Results

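Muscle sarcomere and MEF2 genes were followed in 3 human carcinoma lines treated with inhibitors of chromatin enzymes. The set holds 51 genes of 25647 measured, picked by gene name with earlier results of these data known: actins, sarcomeric myosins, troponins, Z-disc, M-band and calcium-handling proteins of striated muscle, and the muscle transcription factors MYOD1, MYOG, MEF2A, MEF2C and MEF2D. All 51 names occur in the count tables, and all 51 were matched to a RefSeq gene of GRCh38.p14 by their transcript accessions. A filter on low counts left 30 of them for the test. The other 21 are ACTA1, ACTC1, ACTN3, MYH1, MYH8, MYL1, MYL3, MYL4, MYL7, TNNT3, TNNI2, TNNC2, MYOZ1, MYOZ2, CSRP3, MYOD1, MYOG, CASQ1, CASQ2, CAV3 and MYBPC2.

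Poly(A) RNA was sequenced in 12 libraries. The groups were TSA at 1 µM, GSK126 at 50 µM, S2101 at 100 µM, and untreated cells. TSA, or trichostatin A, blocks histone deacetylases, GSK126 blocks EZH2, which methylates histone H3, and S2101 blocks LSD1, which removes histone methyl groups. Each group had 1 library each of MHCC97H, a hepatocellular carcinoma line, A549, a lung adenocarcinoma line, and HCT116, a colorectal carcinoma line. A549 and MHCC97H grew in DMEM and HCT116 in RPMI 1640, and the part of the medium cannot be told apart from that of the line. The sources used here give neither the treatment time nor a vehicle, and the doses differ between compounds. Wherever 3 values follow each other they are in the order MHCC97H, A549, HCT116.

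In striated muscle, myosin thick filaments pull on actin thin filaments, which are anchored by alpha-actinin at the Z-disc. Troponin and tropomyosin make the pull depend on calcium, titin runs from the Z-disc to the M-band, and desmin filaments tie neighbouring Z-discs together. MEF2 proteins and the MyoD family bind the control regions of these genes, and class IIa histone deacetylases bind MEF2 proteins and hold their targets silent. Carcinoma cells of lung, colon and liver do not build sarcomeres, although some members, such as TPM2, MEF2A and MEF2D, are also active outside muscle.

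The 250 bases before the RefSeq start are shown for 4 members. They include the actin-like gene ACTBL2 and the alpha-actinin gene ACTN2, which TSA switched on in all 3 lines. Also shown are the titin gene TTN, whose TSA change differed most between the lines, and the tropomyosin gene TPM2, the only member that fell. The sequences are RefSeq's for GRCh38.p14, read 5′ to 3′ on the gene's own strand. Capitals mark matches on either strand to the E-box CANNTG, the motif bound by MyoD-family proteins, and to the MEF2 box. The windows are chr5:57482812-57483061 (minus strand) for ACTBL2, chr1:236686249-236686498 (plus strand) for ACTN2, chr2:178807424-178807673 (minus strand) for TTN and chr9:35690057-35690306 (minus strand) for TPM2.
ACTBL2: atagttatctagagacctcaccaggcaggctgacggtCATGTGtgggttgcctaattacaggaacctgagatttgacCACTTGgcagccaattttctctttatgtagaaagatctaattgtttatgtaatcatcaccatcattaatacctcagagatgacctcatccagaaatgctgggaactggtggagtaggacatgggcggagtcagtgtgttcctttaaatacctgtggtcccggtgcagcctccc
ACTN2: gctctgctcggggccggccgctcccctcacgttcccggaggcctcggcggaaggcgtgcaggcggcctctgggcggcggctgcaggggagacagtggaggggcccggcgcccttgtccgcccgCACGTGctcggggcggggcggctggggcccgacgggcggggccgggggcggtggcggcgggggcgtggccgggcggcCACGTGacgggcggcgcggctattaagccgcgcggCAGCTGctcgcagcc
TTN: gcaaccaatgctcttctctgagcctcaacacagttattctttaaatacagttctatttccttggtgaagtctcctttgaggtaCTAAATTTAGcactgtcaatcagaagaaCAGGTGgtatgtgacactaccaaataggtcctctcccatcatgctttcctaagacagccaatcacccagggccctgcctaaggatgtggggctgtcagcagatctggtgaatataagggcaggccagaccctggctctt
TPM2: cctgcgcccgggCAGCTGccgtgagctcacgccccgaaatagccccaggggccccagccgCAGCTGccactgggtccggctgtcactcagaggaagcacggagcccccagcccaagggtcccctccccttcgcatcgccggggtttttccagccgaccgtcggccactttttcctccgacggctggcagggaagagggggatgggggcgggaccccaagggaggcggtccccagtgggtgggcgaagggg

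The 4 windows differ in base composition. ACTN2 has 38 CpG dinucleotides and a GC content of 81.6%, TPM2 has 19 CpG, ACTBL2 has 3 and TTN has 0. ACTBL2 and TPM2 have 2 E-boxes each, ACTN2 has 3 and TTN has 1, which lies downstream of its MEF2 box. Of the 51 members, 35 have a promoter in the table; DES, the desmin gene, is not among them. E-boxes occur in 26 of the 35 and in 62.2% of all 27305 promoters. A MEF2 box occurs in 8 of the 35, namely MYH1, MYH8, TTN, MYOZ1, MYOZ2, CASQ2, CAV3 and MYBPC3, and in 2.9% of all promoters. CArG boxes, the motif of serum response factor, occur in 5 (ACTA1, ACTC1, MYL7, MYOM1 and LDB3) against 1.14% of all promoters, TATAAA in 9 against 11.1%, and the GC box GGGCGG in 13 against 42.3%. TATAAA can lie inside a MEF2 box, and the 2 were counted separately. Of the 8 members with a MEF2 box in this window, only TTN and MYBPC3 had enough reads to be tested. Neither passed the main test under TSA, while a second test, DESeq2, called TTN. The median member promoter had 5 CpG and the median of all promoters 11. A match is a string of letters and not a bound site.

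Library totals ran from 14468304 to 19061367 counts, so 3 reads correspond to 0.157 to 0.207 CPM (read counts scaled to a common library size). That limit, like the read-ratio intervals, reflects counting alone. Levels below are normalised CPM, scaled by TMM factors, unless RPKM or CPM of the library total is named. The replicates of a group are the 3 lines, so p-values rest on how far the lines differ in their response, estimated over all 12 libraries, and not on repeat cultures. The untreated library labelled MHCC97H had 4 of 7 hepatocyte markers at 1 CPM of the library total or more. HNF4A stood at 52.0, APOB at 13.6, SERPINA1 at 2.99 and AFP at 2.43 CPM. APOA1 stood at 0.374, ALB at 0.499 and TTR at 0. Its 6 colorectal markers summed to 1327 CPM, 1032 of it KRT20, against 13.4 CPM in untreated HCT116. KRT20, LGALS4, CDH17 and VIL1 were higher than in HCT116, CDX2 was lower (3.68 against 12.6 CPM), and CDX1 was at 0 in both. Untreated A549 had no read of the lung factor NKX2-1. In the A549 S2101 library, all 56 genes that had 0 reads in untreated A549 and at least 50 under TSA had a read, at a median of 8.0% of their A549 TSA level. In the A549 GSK126 library 51 of the 56 had a read, at a median of 2.71%. ACTBL2 and ACTN2 stood at 10.1% of their TSA level in the A549 S2101 library, and DES at 8.26%. What set these low levels was not tested, and the S2101 comparisons are repeated below without that library, a choice made after seeing the data. In bulk RNA a change in the share of cells that express a gene and a change in RNA per cell cannot be told apart.

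More members were detectable under TSA in each line. At 1 CPM of the library total, TSA libraries had 21, 23 and 25 detected members of 51, GSK126 libraries 13, 15 and 19, S2101 libraries 12, 17 and 20, and untreated libraries 11, 15 and 18. The gain under TSA averaged 8.3 ± 1.5 members (SD, n = 3), against 1.0 ± 1.0 under GSK126 and 1.7 ± 0.6 under S2101. Over all genes, 57.1%, 59.1% and 58.2% reached 1 CPM under TSA and 51.1%, 52.9% and 54.0% in untreated cells, against 41.2%, 45.1% and 49.0% and 21.6%, 29.4% and 35.3% of the members. Members with at least 1 read numbered 44, 45 and 48 under TSA and 28, 33 and 38 in untreated cells, while the share of all genes with a read was 76.7%, 77.8% and 77.3% under TSA and 69.7%, 70.8% and 71.9% in untreated cells. Most of the set stayed at a low level. Outside MYBPC2, the members left out of the test peaked at 0.902 CPM, the level of the skeletal alpha-actin gene ACTA1 in HCT116 under TSA.

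**Figure D1:**
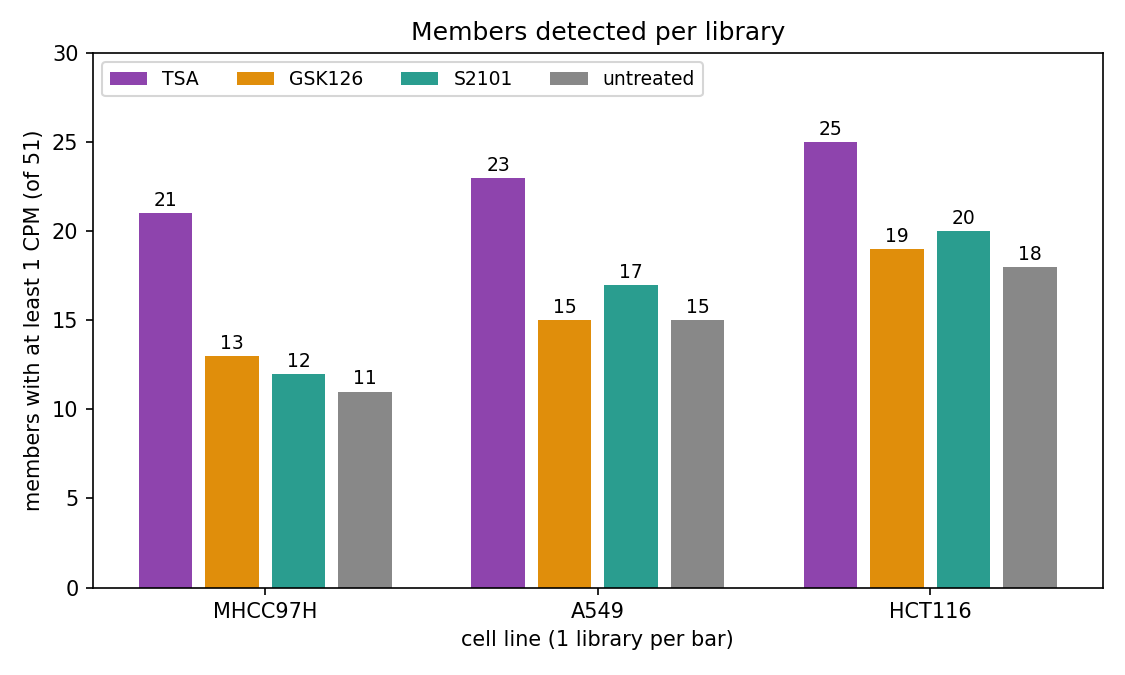
Bars give the number of the 51 members with at least 1 CPM in each library, by cell line, for TSA, GSK126, S2101 and untreated cells (1 library per bar). The TSA bar is the tallest in each line, at 21, 23 and 25 members.

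Under TSA against untreated cells, 11 of the 30 tested members rose and 1 fell. The 11 were ACTBL2, ACTN2, MYH2, DES, CKM, MYOM2, TCAP, MEF2C, RYR1, ATP2A1 and MYBPC1, and TPM2 fell (edgeR's quasi-likelihood F test, Benjamini-Hochberg adjusted p under 0.05 over 16929 genes). That is 36.7% of the tested members higher and 3.33% lower, against 17.4% of all genes tested higher and 17.2% lower. The median log2 change was 1.33 over the 30 members and 0.08 over all genes. It was also 1.33 with the 2 genes at 0 in untreated cells set to their lower bound. Some members, such as ACTBL2, ACTN2 and MYBPC1, reached the low-count filter through their TSA reads. The member share and median thus depend in part on high TSA levels and are no independent support. The same filter was applied to all genes. By range alone, all 3 TSA libraries lay above all 3 untreated libraries for 15 of the 51 members and below for 1. The shares of all genes were 9.95% and 7.6%. Some of the 15 rest on few reads. MYOZ1 had 1 read in each TSA library and TNNT3 had 4, 1 and 3, against 0 in untreated cells. The number of calls depended on the line left out: without A549 0 of 27 tested members passed and 12 genes in all, without MHCC97H 3 members passed (ACTBL2, ACTN2 and MYOM2), and without HCT116 10 passed. With any 1 of the 6 libraries left out, 5 to 15 members passed. ACTBL2, ACTN2, CKM and TPM2 were among them each time, at adjusted p up to 0.0417, 0.0338, 0.0493 and 0.0484. The shares of all genes in the fits without a library are not given here, so the counts are no result about the members.

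**Figure D2:**
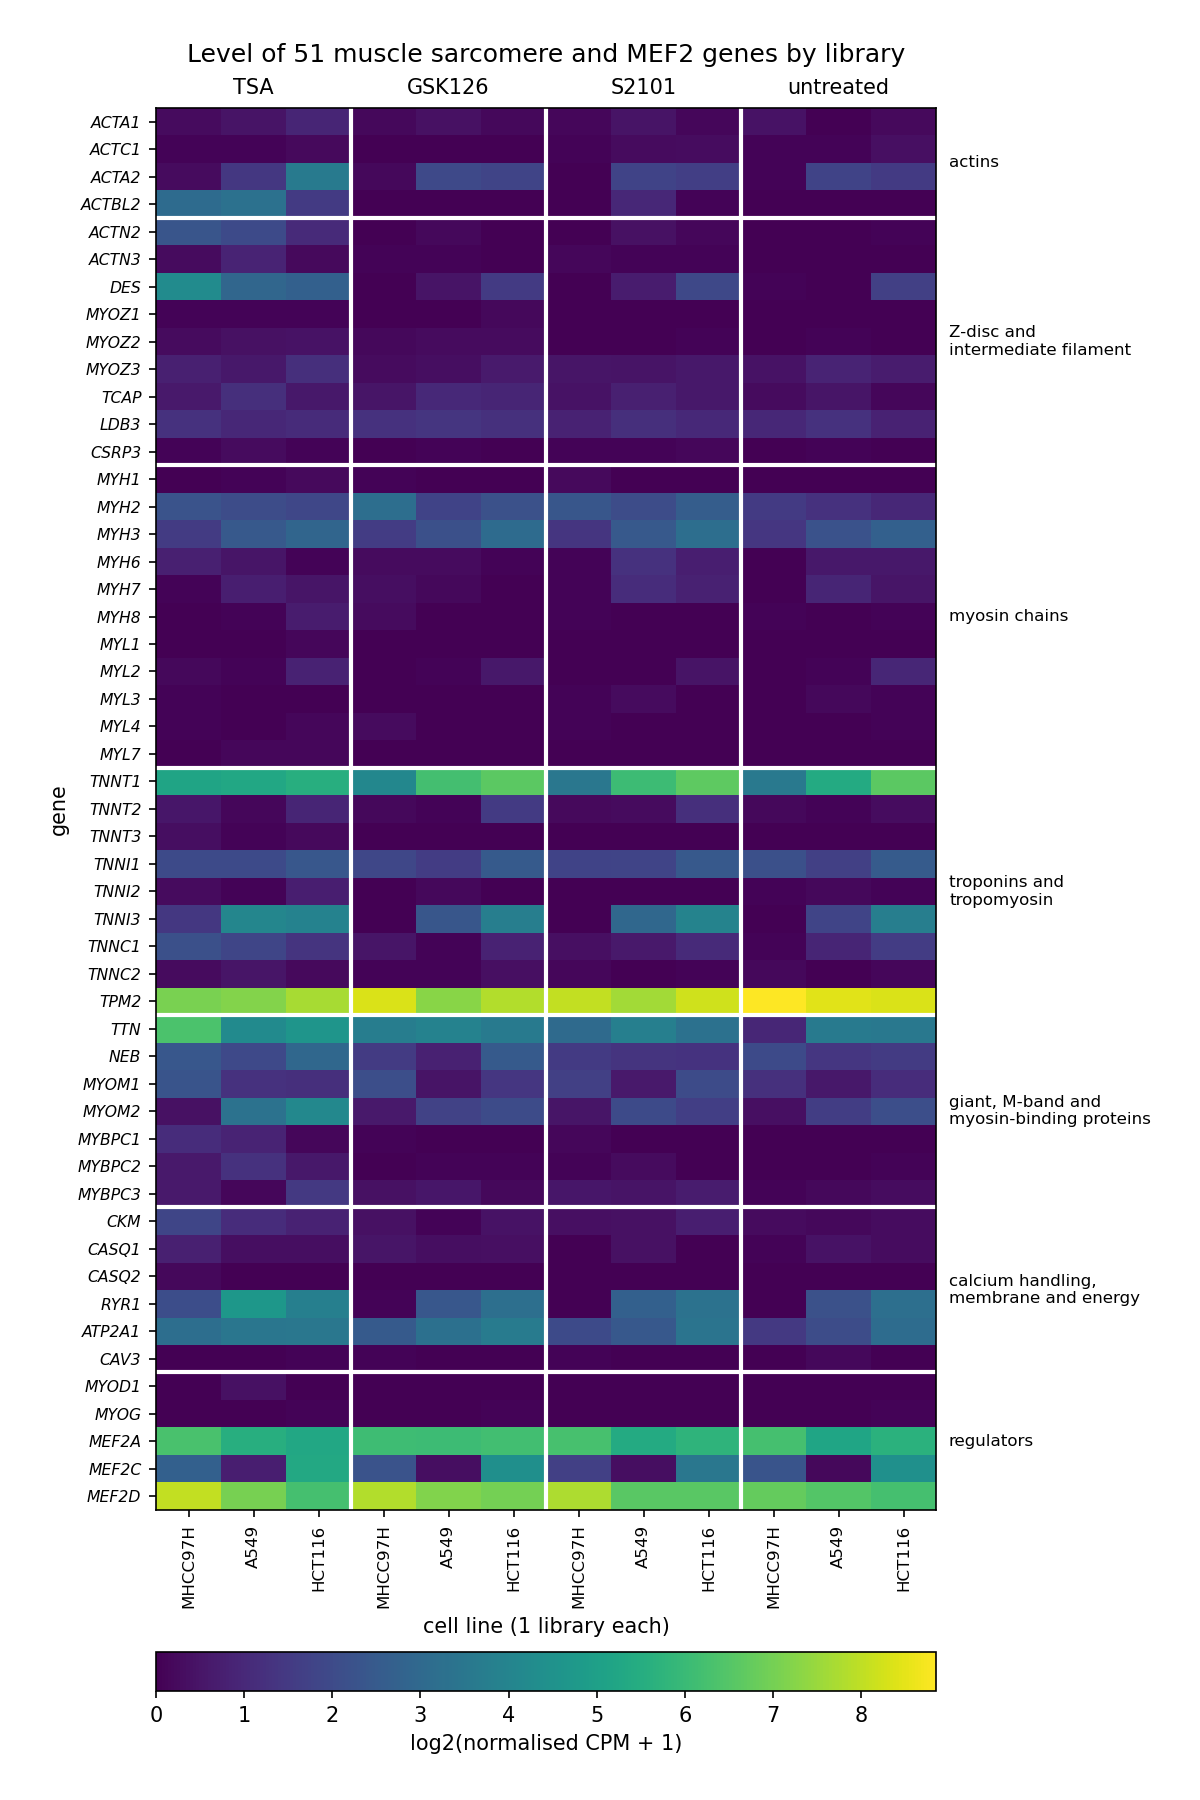
Colour gives log2(normalised CPM + 1) of each of the 51 members (rows, grouped by role) in the 12 libraries (columns, grouped as TSA, GSK126, S2101 and untreated, with the 3 lines inside each group). TPM2, MEF2D, MEF2A and TNNT1 are bright in most columns, while ACTBL2, ACTN2 and DES stand out under TSA.

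Among the 4 actins, 2 were tested and ACTBL2 rose. For this and the counts by role below, 17.4% of all genes tested were called higher and 17.2% lower. With 2 to 6 tested members per role, such counts describe single genes. ACTBL2 encodes an actin-like protein; its gene lies on chromosome 5 at 57480018 to 57482811. It had 7.62, 8.94 and 1.86 CPM under TSA (115, 145 and 31 reads), against 0 reads in each of the 3 untreated libraries. All 3 TSA libraries lay above every other library, and the change was at least 92.7-fold over a floor of 3 reads for the untreated group (adjusted p = 0.00932). GSK126 libraries had 0 reads of it too, and S2101 libraries had 0, 15 and 1. None of its 50-base windows occurs unchanged in another annotated gene. Only exact matches were searched, so whether reads of similar actins were counted as ACTBL2 was not tested. ACTA2, the smooth muscle actin gene on chromosome 10, had 0.199, 1.73 and 11.6 CPM under TSA, against 0.0702, 2.41 and 1.82 in untreated cells. Only HCT116 stood out, and ACTA2 did not pass (log2 change 1.48 ± 0.72 SE, adjusted p = 0.137); 30.1% of its windows lie opposite an antisense gene. The skeletal and cardiac actin genes ACTA1 and ACTC1 had 24 and 5 reads in the TSA libraries together, against 8 and 7 in the untreated ones.

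At the Z-disc, ACTN2, DES and TCAP rose, 3 of 5 tested members of 9, against 17.4% of all genes tested. ACTN2, on chromosome 1 at 236686499 to 236764631, encodes the alpha-actinin of striated muscle that cross-links actin at the Z-disc. It had 3.98, 2.96 and 1.08 CPM under TSA (60, 48 and 18 reads), against 0, 0 and 0.0586 CPM in untreated cells, a single read in HCT116. The groups did not overlap, and the ratio of the summed counts was 120.0 (95% counting interval 21.2 to 4792, adjusted p = 0.00455). ACTN2 had 2 reads in the GSK126 libraries together and 7 in the S2101 libraries. ACTN3, the alpha-actinin of fast fibres, was too low for the test. It had 20 reads under TSA and 0 in untreated cells, at least 6.37-fold higher, and passed only when the filter was dropped (adjusted p = 0.0202).

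DES, on chromosome 2 at 219418377 to 219426734, encodes desmin, the intermediate filament protein of muscle. It had 18.2, 6.53 and 5.59 CPM under TSA, against 0.0702, 0 and 2.23 CPM in untreated cells. Untreated MHCC97H and A549 held 1 and 0 reads of it and untreated HCT116 38, and the groups did not overlap. The log2 change was 5.26 ± 1.48 (SE, adjusted p = 0.0245). It was 3.22 without the TSA library of MHCC97H, 6.59 without that of HCT116 and 7.63 without the untreated library of HCT116, so its size varied with single libraries. DES lost its call without the TSA library of MHCC97H (adjusted p = 0.0502) and without the untreated library of MHCC97H (0.0998) or A549 (0.0877). TCAP, on chromosome 17 at 39665349 to 39666554, encodes telethonin, which caps titin at the Z-disc. It had 0.53, 1.29 and 0.481 CPM under TSA, against 0.211, 0.414 and 0.117 in untreated cells, a log2 change of 1.6 ± 0.47 (SE, adjusted p = 0.0291). The TSA libraries held 8 to 21 reads of it and the untreated ones 2 to 6, and TCAP kept its call in 1 of the 6 fits that left out a library, the one without the TSA library of HCT116 (adjusted p 0.0166, and up to 0.0947 in the others). DESeq2 gave TCAP an adjusted p of 0.0685. TCAP had 0.399, 1.03 and 0.884 CPM under GSK126, and TSA against GSK126 gave a log2 change of -0.06 (edgeR, adjusted p = 0.991).

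Among the other Z-disc genes, 0 passed with the filter in place. LDB3, a PDZ-LIM protein gene, had 1.39, 0.986 and 1.14 CPM under TSA and 0.983, 1.38 and 0.82 CPM in untreated cells (adjusted p = 0.718). MYOZ3, a calsarcin gene, had 0.729, 0.493 and 1.26 CPM against 0.351, 0.828 and 0.586 (adjusted p = 0.471). In both, the groups overlapped. MYOZ2, the cardiac calsarcin gene, had 14 reads under TSA and 1 in untreated cells, a ratio of 13.4 with a counting interval of 2.04 to 566.0, and passed only when the filter was dropped (adjusted p = 0.0454). MYOZ1 had 3 reads in the TSA libraries, 1 in each, and CSRP3, the muscle LIM protein gene, had 5 under TSA and 1 in untreated cells.

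Among 11 myosin chain genes, 5 were tested and MYH2 rose. MYH2, on chromosome 17 at 10521148 to 10549658, encodes the heavy chain of fast type IIa fibres. It had 3.78, 3.14 and 2.65 CPM under TSA, against 1.83, 1.38 and 0.996 CPM in untreated cells, a log2 change of 1.21 ± 0.39 (SE, adjusted p = 0.0394). The groups did not overlap, and the change was similar in the 3 lines, at 0.76, 0.8 and 0.87 on the log2(CPM + 1) scale. It also read above every untreated library under GSK126 (8.11, 2.46 and 3.54 CPM) and S2101 (4.11, 3.21 and 5.11 CPM). MYH2 shares 17.1% of its 50-base windows with other genes, mostly its neighbour MYH1, and MYH1 held 4 reads under TSA. Its call held without the TSA library of MHCC97H (adjusted p = 0.0498) or HCT116 (0.0353), and was lost without the TSA library of A549 (0.11) or the untreated library of MHCC97H, A549 or HCT116 (0.108, 0.0745 and 0.119).

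The other tested myosins did not pass. MYH3, the embryonic heavy chain gene, had 1.92, 4.5 and 6.32 CPM under TSA, against 1.62, 3.72 and 5.57 CPM in untreated cells, with each line close to its own untreated level (log2 change 0.24 ± 0.26 SE, adjusted p = 0.495). The cardiac heavy chain genes MYH6 and MYH7 peaked in A549 under S2101, at 1.37 and 1.18 CPM, and outside that library at 0.729 and 0.897 CPM. Under TSA they had 19 reads each, against 15 and 20 in untreated cells. They share 15.3% and 14.5% of their windows, mostly with each other, so their counts are uncertain. MYL2, the ventricular light chain gene, had 0.133, 0.0616 and 0.782 CPM under TSA, against 0, 0.069 and 0.937 CPM in untreated cells, and only HCT116 held more than 2 reads of it in any condition. MYL1, MYL3, MYL4 and MYL7 had at most 0.2 CPM in every library.

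Of the 9 troponin and tropomyosin genes, 6 were tested, 0 rose and TPM2 fell. TPM2, on chromosome 9 at 35681993 to 35690056, encodes beta-tropomyosin, which winds along actin filaments and is also made outside muscle. It had 134, 145 and 204 CPM under TSA, against 460, 350 and 328 CPM in untreated cells, a log2 change of -1.23 ± 0.24 (SE, adjusted p = 0.00636). Every TSA library lay below every untreated one. All GSK126 libraries (325, 154 and 224 CPM) and all S2101 libraries (262, 197 and 296 CPM) also lay below the lowest untreated library, without passing the test. Leaving out MHCC97H or A549 in all conditions gave adjusted p = 0.0593 or 0.105 for TSA.

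No troponin passed the test in edgeR, while DESeq2 called TNNI3 under TSA. TNNT1, the slow skeletal troponin T gene on chromosome 19 and the most abundant troponin here, had 34.8, 38.1 and 46.1 CPM under TSA, against 11, 41.0 and 97.3 CPM in untreated cells. It was higher under TSA in MHCC97H, lower in HCT116 and close to its untreated level in A549, and the mean change was 0.33 ± 0.52 (log2, SE, adjusted p = 0.644). TNNI3, the cardiac troponin I gene beside it, had 1.72, 15.7 and 14.1 CPM under TSA, against 0, 2.48 and 12.8 CPM in untreated cells. It was higher in MHCC97H and A549 and level in HCT116 (log2 change 2.38 ± 0.97 SE, adjusted p = 0.0849), and 48.7% of its windows also occur in another annotated gene, AC010327.1. TNNC1, the troponin C gene of heart and slow muscle, had 3.51, 2.59 and 1.5 CPM under TSA, against 0.0702, 0.897 and 1.99 CPM in untreated cells (log2 change 1.76 ± 0.86 SE, adjusted p = 0.138). TNNT2, the cardiac troponin T gene, peaked at 1.84 CPM in HCT116 under GSK126. It had 0.464, 0.123 and 0.902 CPM under TSA against 0.14, 0.069 and 0.234 CPM in untreated cells (adjusted p = 0.108). TNNI1, the slow troponin I gene, stood at 2.92, 2.96 and 4.33 CPM under TSA and 3.51, 2.21 and 4.75 CPM in untreated cells (adjusted p = 0.998).

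Of the 7 giant, M-band and myosin-binding protein genes, 6 were tested, and MYOM2 and MYBPC1 rose. MYOM2, on chromosome 8, encodes an M-band protein that links thick filaments. It had 0.331, 9.06 and 16.7 CPM under TSA, against 0.281, 2.07 and 3.34 CPM in untreated cells. A549 and HCT116 were several times higher under TSA and MHCC97H was level, so the groups overlapped (log2 change 1.9 ± 0.53 SE, adjusted p = 0.0242). Its call held in 1 of 6 fits without a library, the one without the TSA library of MHCC97H (adjusted p = 0.00492), and the others gave 0.0559 to 0.106. MYBPC1, the slow myosin-binding protein C gene on chromosome 12 at 101594971 to 101695841, had 18, 14 and 2 reads under TSA and 0 in the untreated libraries, at least 10.8-fold higher (adjusted p = 0.00695). In HCT116 that rests on 2 reads, and DESeq2 gave MYBPC1 an adjusted p of 0.0541. Without the TSA library of MHCC97H or of A549 it fell below the filter. MYBPC2, the fast form on chromosome 19, had 8, 23 and 8 reads under TSA and 0, 0 and 1 in untreated cells, a ratio of 37.3 (counting interval 6.31 to 1509), and passed once the filter was dropped (adjusted p = 0.0107).

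TTN, on chromosome 2 at 178525989 to 178807423, encodes titin, the molecular spring of the sarcomere and the longest transcript of the set. It had 81.0, 17.8 and 23.4 CPM under TSA, against 0.913, 11.5 and 10.7 CPM in untreated cells. Every TSA library lay above every untreated one, but the size of the difference was unequal. MHCC97H had 1222 reads under TSA and 13 untreated, a difference of 5.42 on the log2(CPM + 1) scale, against 0.59 in A549 and 1.06 in HCT116. Over the 3 lines the log2 change was 2.44 ± 0.89 (SE) and did not pass in edgeR (adjusted p = 0.0603), while DESeq2 called TTN. MHCC97H also held more TTN reads under GSK126 (12.4 CPM) and S2101 (7.4 CPM) than untreated. The antisense gene TTN-AS1, opposite 13.4% of the windows of TTN, had 1, 57 and 51 reads under TSA and 0, 28 and 37 in untreated cells, and MHCC97H, with the most TTN reads, held 1 read of it. NEB, the nebulin gene on the same chromosome, had 4.24, 2.9 and 6.74 CPM under TSA, against 2.95, 1.66 and 1.87 CPM in untreated cells (log2 change 1.02 ± 0.47 SE, adjusted p = 0.117). MYOM1 had 3.91, 1.42 and 1.26 CPM against 1.33, 0.483 and 1.17 CPM (adjusted p = 0.116). MYBPC3, the cardiac myosin-binding protein C gene, had 0.53, 0.123 and 1.74 CPM against 0.0702, 0.138 and 0.234 CPM (adjusted p = 0.0724).

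Of the 6 members for calcium handling, membrane and energy, 3 were tested and all 3 rose, against 17.4% of all genes tested. ATP2A1, on chromosome 16 at 28878488 to 28904466, encodes the fast-twitch calcium pump of the sarcoplasmic reticulum. It had 8.28, 10 and 10.5 CPM under TSA, against 1.76, 3.17 and 7.73 CPM in untreated cells, a log2 change of 1.45 ± 0.34 (SE, adjusted p = 0.0119). The 3 lines stood close together under TSA and apart when untreated, and the groups did not overlap. Without the untreated library of MHCC97H or A549 the adjusted p was 0.0559 or 0.0583. ATP2A1 had 4.66, 8.53 and 11.8 CPM under GSK126, and TSA against GSK126 did not pass (log2 change 0.35 ± 0.33 SE, adjusted p = 0.441). RYR1, on chromosome 19 at 38433691 to 38587564, encodes the calcium release channel of skeletal muscle. It had 3.25, 24.4 and 13.1 CPM under TSA, against 0, 3.59 and 8.5 CPM in untreated cells (log2 change 2.89 ± 0.94 SE, adjusted p = 0.0412). Each line was higher than its own untreated library, with overlap between lines. The log2 change was 1.89 without the TSA library of MHCC97H and 3.72 without that of HCT116. RYR1 kept its call without the TSA library of MHCC97H (0.034) or HCT116 (0.00355), and lost it without the TSA library of A549 (0.083) or the untreated library of MHCC97H, A549 or HCT116 (0.112, 0.135 and 0.0616). CKM, on chromosome 19 at 45306413 to 45322875, encodes the muscle creatine kinase. It had 2.58, 1.17 and 0.782 CPM under TSA, against 0.211, 0.138 and 0.234 CPM in untreated cells, a log2 change of 2.89 ± 0.63 (SE, adjusted p = 0.00942), with no overlap. Without the TSA library of HCT116 it was 3.51. The calsequestrin genes CASQ1 and CASQ2 and the muscle caveolin gene CAV3 stayed at or below 0.729 CPM.

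**Figure D3:**
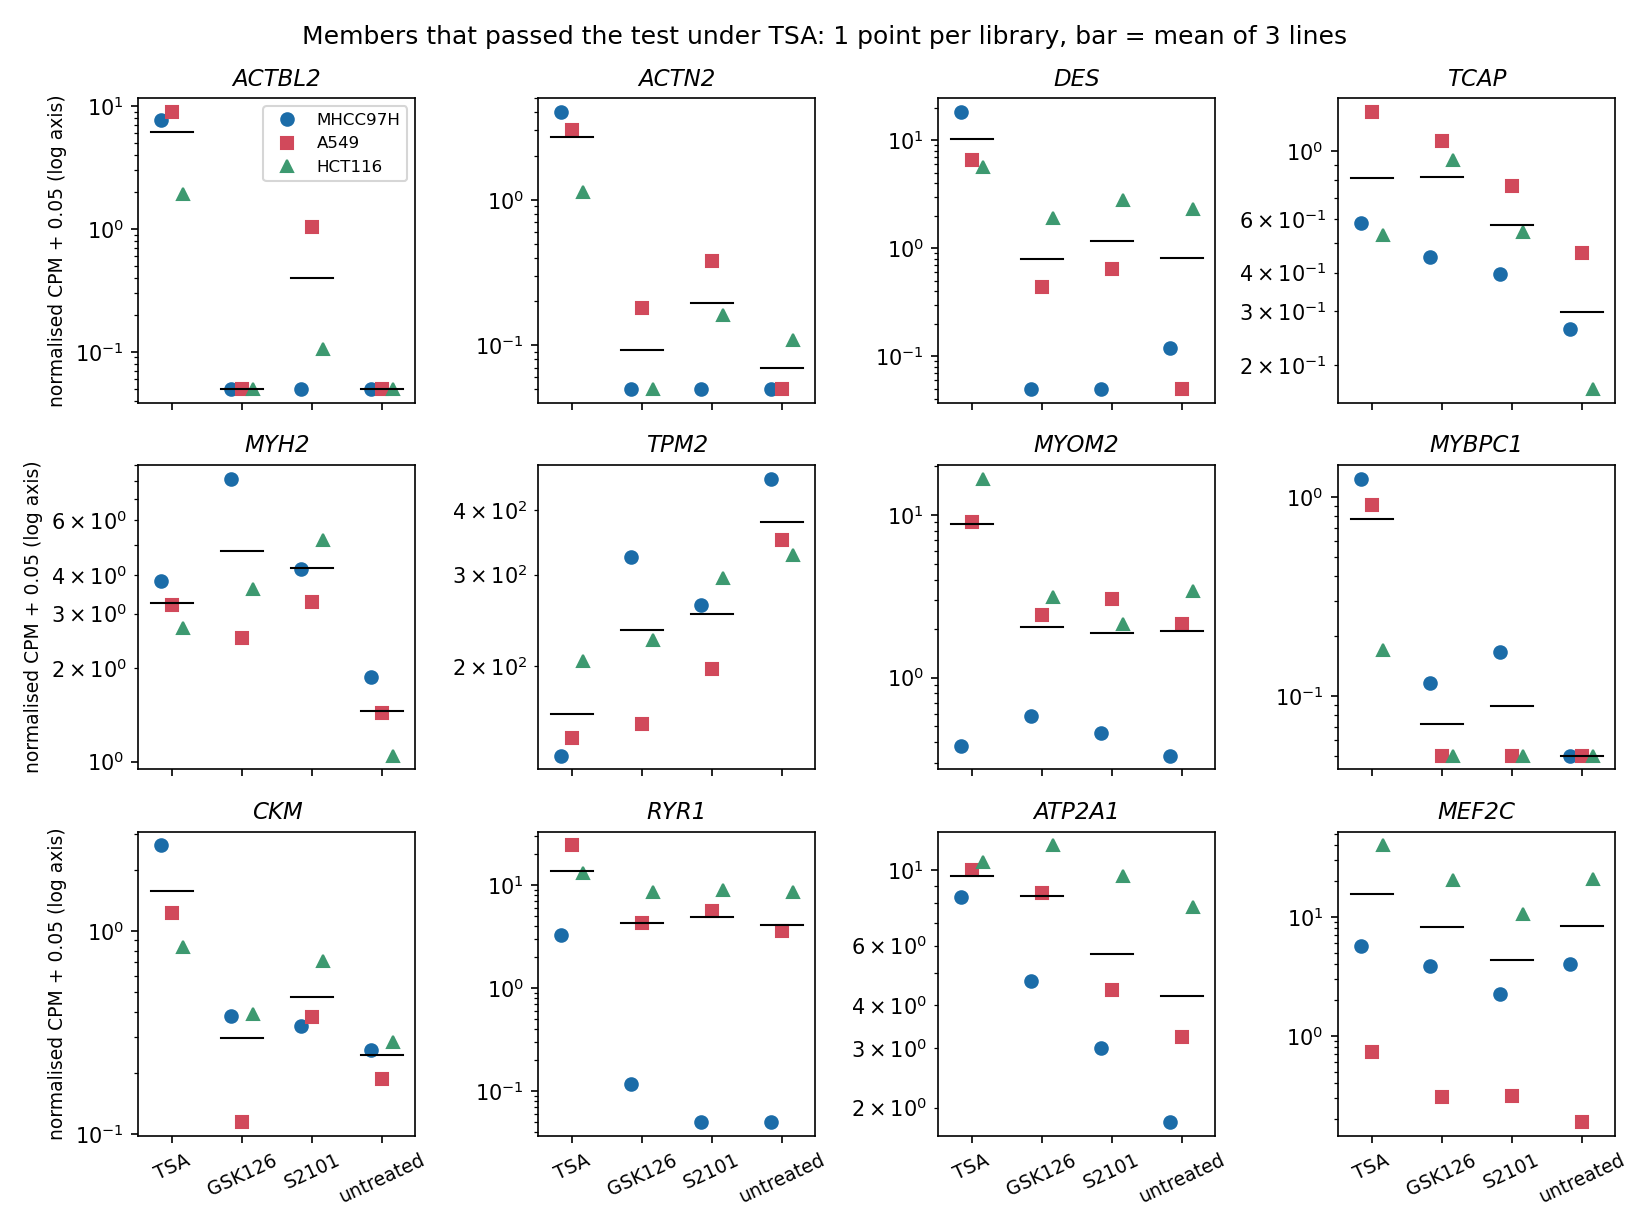
Each panel shows 1 of the 12 members that passed the test under TSA, with normalised CPM + 0.05 on a log axis for TSA, GSK126, S2101 and untreated cells. Points are single libraries by line and bars the mean of the 3 lines. ACTBL2 and ACTN2 stand above all other libraries under TSA, and TPM2 is lowest under TSA.

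Of the regulators, MEF2C rose and the MyoD family stayed near 0. MEF2C, on chromosome 5 at 88717117 to 88904105, encodes a MADS-box activator of muscle genes. It had 5.63, 0.678 and 39.8 CPM under TSA, against 3.93, 0.138 and 20.9 CPM in untreated cells, a log2 change of 0.95 ± 0.3 (SE, adjusted p = 0.0373). The lines differed far more from each other than from their own untreated library, and the groups overlapped. MEF2C kept its call only without the TSA library of MHCC97H (0.0279), and the 5 other fits without a library gave 0.0673 to 0.0893. MEF2D, on chromosome 1, had 264, 131 and 73.9 CPM under TSA, against 108, 88.2 and 74.3 CPM in untreated cells, higher in MHCC97H and A549 and level in HCT116 (log2 change 0.63 ± 0.23 SE, adjusted p = 0.0606). It did not pass in edgeR, while DESeq2 called it. MEF2A, on chromosome 15, had 77.9, 45.8 and 38.5 CPM under TSA and 75.4, 36.1 and 49.0 CPM in untreated cells (log2 change 0.02 ± 0.22 SE, adjusted p = 0.952). Its count is uncertain, since 12.5% of its windows lie opposite LYSMD4, which had 421, 270 and 99 reads under TSA and 193, 128 and 168 in untreated cells. MYOD1, the myogenic master regulator, had 5 reads in A549 under TSA and 0 in each of the 11 other libraries. MYOG, which encodes myogenin, had 1 read in HCT116 in 3 of its 4 conditions and 0 elsewhere. In the MHCC97H TSA library, which held ACTN2, DES, CKM, TTN and NEB above 1 CPM, MYOD1 and MYOG both had 0 reads.

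The lines shared part of this pattern. Members switched on, here at 1 CPM of the library total or more in the treated library but under 0.1 CPM in the same line untreated, numbered 7, 4 and 2 under TSA. In MHCC97H they were ACTBL2, ACTN2, TNNI3, TNNC1, DES, RYR1 and MYBPC1, in A549 ACTBL2, ACTN2, DES and MYBPC2, and in HCT116 ACTBL2 and ACTN2. Of all 25647 genes, 1.87%, 1.86% and 0.561% met that definition under TSA. Under GSK126 and S2101 it held for 0 members in every line, against 0.0078%, 0.0741% and 0.0312% of all genes under GSK126 and 0.0%, 0.113% and 0.0156% under S2101. On the log2(CPM + 1) scale, which understates the change of low genes, ACTBL2 and DES were at least 2-fold higher in all 3 lines under TSA and 0 members were 2-fold lower, against 1.79% and 1.47% of all genes. For GSK126 the counts were 0 and 0, against 0.222% and 0.0234% of all genes, and for S2101 0 and 0, against 0.0546% and 0.0%. On the log2(CPM + 1) scale, HCT116 had the smallest increase of the 3 lines for ACTBL2, ACTN2, DES, RYR1, CKM, ATP2A1 and MYBPC1. Its increase was the largest for MYH2, MYOM2 and MEF2C. For MEF2C that order depends on the added 1, since A549 went from 0.138 to 0.678 CPM and HCT116 from 20.9 to 39.8 CPM. With 1 library per line and condition, these differences between lines were not tested.

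**Figure D4:**
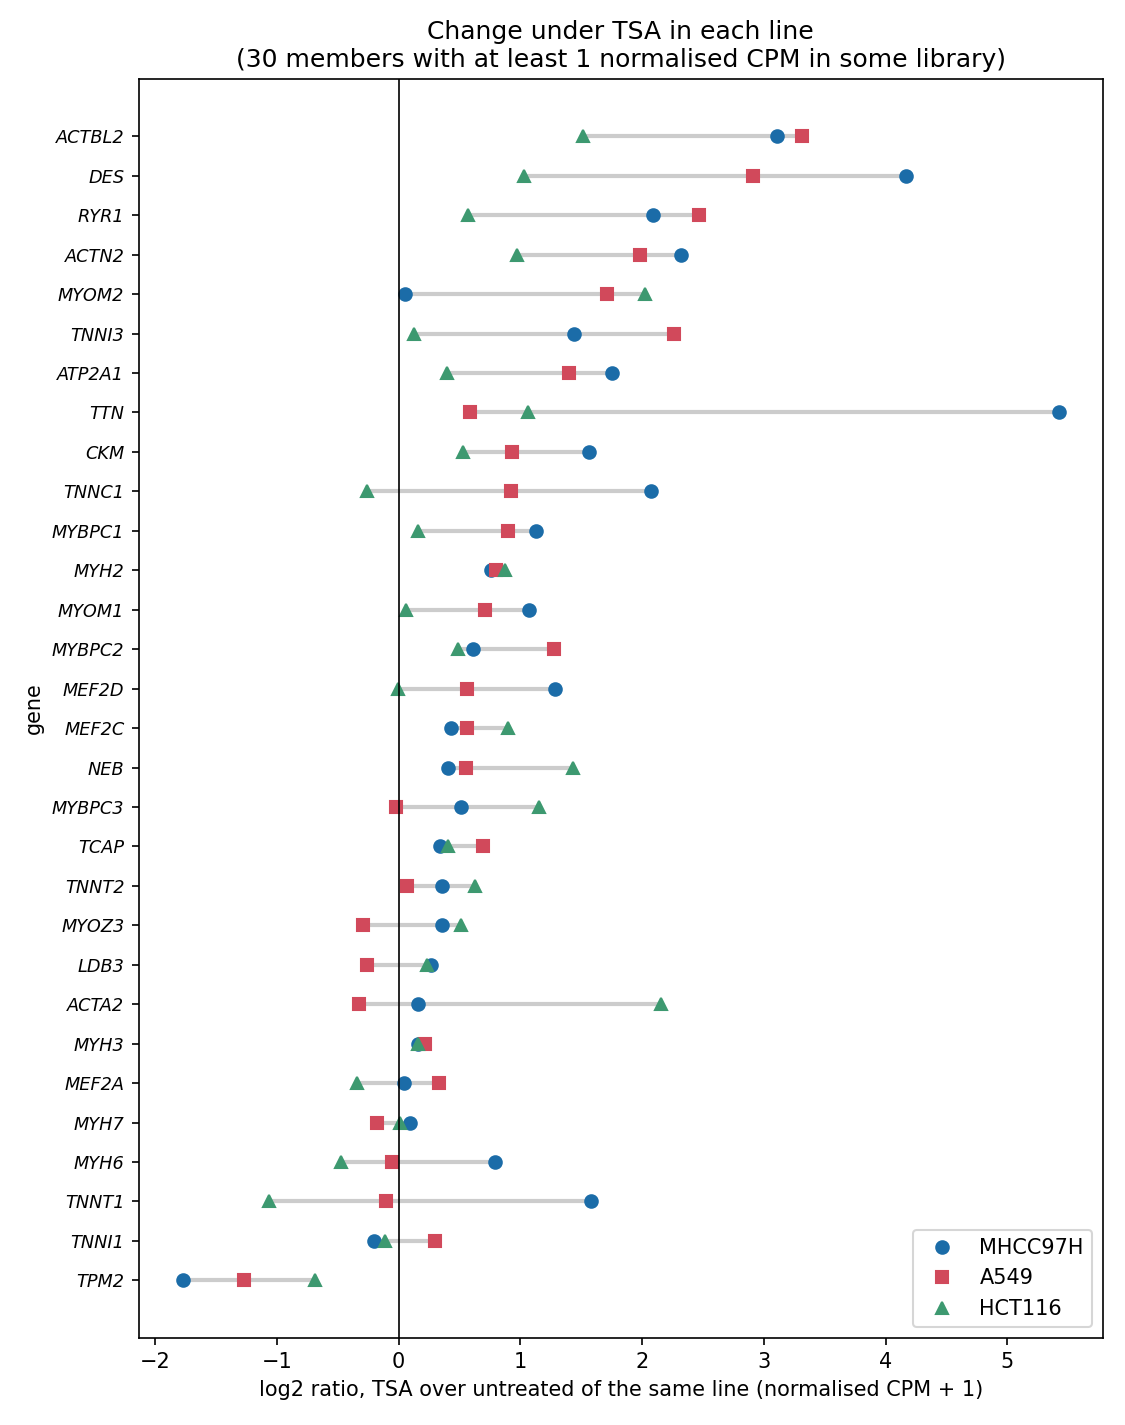
Points give the log2 ratio of TSA over untreated normalised CPM + 1 within each line for the 30 members that reached 1 normalised CPM in some library, ordered by their median, with a grey bar over the range of the 3 lines. TTN is spread widest, at 5.42 in MHCC97H against 0.59 in A549, and TPM2 is below 0 in all 3 lines.

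No member passed the test under GSK126 or S2101. Under GSK126 against untreated cells, 0 of 30 tested members and 0.0% of all genes passed in either direction (edgeR), while 5 members (16.7%) and 2809 genes (16.6%) had an unadjusted p under 0.05. The 5 were MYH2, with a log2 change of 1.65 ± 0.39 (SE, adjusted p = 0.104), TCAP at 1.66 ± 0.48 (0.136), ATP2A1 at 1.1 ± 0.33 (0.149), MEF2D at 0.83 ± 0.23 (0.129) and TPM2 at -0.74 ± 0.24 (0.169). Each of the 5 had the same sign in all 3 lines. MEF2D had 228, 143 and 126 CPM under GSK126 against 108, 88.2 and 74.3 CPM in untreated cells, with no overlap. DESeq2 called 3 of these members, MYH2, MEF2D and ATP2A1, and 5.33% of all genes, and a fit on the 6 libraries alone called MYH2 and MEF2D and 2.75% of all genes. By range, GSK126 libraries lay apart from untreated ones for 3 members above (MYH2, MYOZ2 and MEF2D) and 2 below (ACTC1 and TPM2). The shares of all genes were 2.79% and 3.97%. MYOZ2 and ACTC1 rest on few reads. MYOZ2 had 2, 3 and 3 under GSK126 against 0, 1 and 0 untreated, and ACTC1 had 0 against 1, 1 and 5. The median log2 change of the 30 members was 0.26, against 0.01 over all genes.

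Under S2101 against untreated cells, 0 of 30 members and 0.0% of all genes passed in either direction (edgeR), with 4 members (13.3%) and 852 genes (5.03%) at an unadjusted p under 0.05. DESeq2 called 0 members. The 4 were MYH2 at a log2 change of 1.61 ± 0.39 (SE), TCAP at 1.11 ± 0.49, TPM2 at -0.61 ± 0.24, and ACTBL2, all at adjusted p = 0.939. ACTBL2 had 16 reads under S2101 against 0 in untreated cells, at least 4.81-fold higher, and 15 of the 16 were in the A549 library. Without that library 2 members had an unadjusted p under 0.05 and 0 passed. The share of all genes in that fit is not given here, so the count cannot be set beside it. Ranges lay apart for 4 members above (ACTN3, MYH2, CKM and MYBPC3) and 2 below (TNNI2 and TPM2), against 1.33% and 2.04% of all genes. ACTN3 and TNNI2 rest on few reads. ACTN3 had 2, 1 and 1 reads under S2101 against 0 untreated, and TNNI2 had 0 against 1, 2 and 1. The median log2 change was 0.41 over the 30 members and 0.0 over all genes. Without the A549 S2101 library, 5 members lay above and 3 below, ACTN3 and TNNI2 again among them, against 3.25% and 4.43% of all genes. The median of the members was then 0.27, and the mean gain in detected members was 1.5.

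Set against the other compounds, which share the TSA libraries, TSA gave higher levels of 7 members in each comparison. Members that reached the filter through their TSA reads, such as ACTN2 and MYBPC1, are among them. Against GSK126, 7 of 30 rose (ACTBL2, ACTN2, TNNC1, DES, CKM, MYOM2 and MYBPC1) and 0 fell, against 14.7% and 14.2% of all genes. Against S2101, 7 rose (ACTBL2, ACTN2, DES, CKM, MYOM2, MEF2C and MYBPC1) and 0 fell, against 13.5% and 13.1% of all genes. ACTBL2 was at least 91.5-fold higher than under GSK126, where it had 0 reads (adjusted p = 0.0108), and 4.63 ± 0.97 higher on the log2 scale than under S2101 (SE, adjusted p = 0.0253). ACTN2 was higher by a ratio of 59.4 than under GSK126 (126 against 2 reads, counting interval 16.1 to 496.0, adjusted p = 0.00583) and by 4.19 ± 0.9 on the log2 scale than under S2101 (adjusted p = 0.0116). MEF2C was 1.64 ± 0.32 higher than under S2101 (log2, SE, adjusted p = 0.00842), where it had 2.2, 0.262 and 10.5 CPM. TNNC1 was 2.9 ± 0.91 higher than under GSK126 (log2, SE, adjusted p = 0.0411), where it had 0.399, 0.0646 and 0.816 CPM. DESeq2 ended the call of MYBPC1 in both comparisons (adjusted p = 0.111 against GSK126 and 0.14 against S2101), and against S2101 also those of ACTBL2 (0.184) and CKM (0.0694). It added calls of TNNI3, MEF2C, RYR1 and MYBPC2 against GSK126. Against S2101 it added TNNI3, TNNC1, TTN, NEB, RYR1 and ATP2A1.

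With any 1 library left out, 2 to 8 members passed for TSA against GSK126 and 1 to 11 for TSA against S2101, and without the A549 line 0 passed in both. Against GSK126, ACTBL2 and ACTN2 kept their calls in all 6 such fits and CKM in 3, while DES, MYOM2 and TNNC1 kept theirs in 1. MYBPC1 kept its call in 2 of the 4 fits that tested it. Against S2101, ACTBL2, ACTN2 and MEF2C kept their calls in 5 of 6, DES, CKM and MYOM2 in 1 of 6, and MYBPC1 in 1 of the 4 that tested it. Single libraries moved the sizes too: the log2 change of ACTBL2 against S2101 lay between 3.67 and 6.83, that of ACTN2 between 3.25 and 5.03 and that of DES between 2.57 and 5.72, while DES against GSK126 lay between 3.12 and 6.29 and TNNC1 between 2.03 and 3.66. Without the A549 S2101 library the calls against S2101 were ACTBL2 (adjusted p = 0.0402), ACTN2 (0.0421) and MEF2C (0.0236). The shares of all genes in these fits are not given here, so their counts of calls describe single genes. GSK126 against S2101 gave 0 calls among the 30 members and 0.0% of all genes in either direction, with 2 members (ACTBL2 and MEF2C) and 470 genes at an unadjusted p under 0.05 in edgeR, and 0 members in DESeq2. The doses of the 3 compounds differ, so these are comparisons of the treatments as given.

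Related genes outside the set were called higher under TSA at shares of 15.4% to 25% per list and lower at 5.71% to 22.2%, against 17.4% and 17.2% of all genes tested, so the counts are no result about the lists and the values describe single genes. Under GSK126 and S2101, 0 genes of these lists passed. Of 63 other striated muscle genes, 35 were tested, and 6 (17.1%) rose and 2 (5.71%) fell. RPL3L, a muscle-restricted ribosomal protein gene, had 3.91, 123 and 42.5 CPM under TSA, against 0, 0.345 and 0.176 CPM in untreated cells (log2 change 8.88 ± 1.18 SE, adjusted p = 0.0019), and all 3 TSA libraries lay above all untreated ones. MYH13, the heavy chain gene of extraocular muscle, had 15, 14 and 10 reads against 5, 0 and 0 (adjusted p = 0.0295). Of the 2 called lower, MYOM3, the third myomesin gene, had 2.12, 4.32 and 7.82 CPM against 7.3, 15.9 and 12.4 CPM (adjusted p = 0.0393), and SGCD, a sarcoglycan gene, was counted as the other. SGCD had 30 reads under TSA against 474 untreated in A549 and 0 in both other lines, so that call sets 1 library against 1 library and says nothing of the other lines. The median log2 change of the 35 was 0.46, against 0.08 for all genes.

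Of 10 tested smooth muscle and serum response factor genes, 2 (20%) rose and 1 fell. CNN1, which encodes the smooth muscle protein calponin, had 1.46, 2.71 and 1.62 CPM under TSA, against 0, 0.414 and 0 CPM in untreated cells (adjusted p = 0.0101), and SYNPO2, the myopodin gene, also rose (log2 change 1.28 ± 0.44 SE, adjusted p = 0.0488). CALD1, the caldesmon gene, had 145, 78.5 and 60.8 CPM against 182, 205 and 121 CPM (adjusted p = 0.0223). Among 18 non-muscle cytoskeletal counterparts, 4 (22.2%) rose and 4 (22.2%) fell. TPM4, a non-muscle tropomyosin gene, fell with TPM2, to 165, 120 and 127 CPM under TSA, against 955, 814 and 373 CPM in untreated cells (log2 change -2.34 ± 0.26 SE, adjusted p = 0.00135). CKB, the brain creatine kinase gene, had 2.52, 343 and 1031 CPM against 2.11, 27.2 and 317 CPM (adjusted p = 0.0398), level in MHCC97H. MYH14, a non-muscle myosin heavy chain gene, rose (2.82 ± 0.83, adjusted p = 0.0283) and CAV2, a caveolin gene, fell (-1.35 ± 0.39, adjusted p = 0.027; higher in HCT116). The medians of the lists were 0.0 for smooth muscle and -0.01 for the non-muscle genes.

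Regulators outside the set and MEF2 partners moved both ways. Of 13 tested regulators, 2 (15.4%) rose and 1 (7.69%) fell, with a median log2 change of 0.18. MEF2B, the fourth MEF2 gene, had 5.76, 7.15 and 10 CPM under TSA, against 1.33, 2.55 and 5.51 CPM in untreated cells (log2 change 1.44 ± 0.3 SE, adjusted p = 0.00744). Each TSA library lay above every untreated one. HAND1, a heart and trophoblast factor gene, had 16, 88 and 1 reads against 0, 1 and 2 (adjusted p = 0.0277), and TEAD4 fell (-0.92 ± 0.22, adjusted p = 0.0146). Of 12 tested MEF2 partners and class IIa deacetylases, 3 (25%) rose and 2 (16.7%) fell, with a median of 0.14. SMYD1, the muscle-restricted histone methyltransferase gene, had 2, 35 and 12 reads under TSA, against 0, 0 and 1 in untreated cells (adjusted p = 0.00545). PPARGC1A, which encodes the coactivator PGC-1alpha, had 68, 28 and 2 reads against 0, 3 and 0 (adjusted p = 0.0225). HDAC7 had 6.63, 6.97 and 23.8 CPM under TSA, against 78.1, 71.7 and 34.2 CPM in untreated cells (log2 change -2.21 ± 0.6 SE, adjusted p = 0.0207), and HDAC4 had 28.6, 19.8 and 19.2 CPM against 44.5, 42.3 and 34.7 CPM (adjusted p = 0.0158).

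Markers of other cell types moved with TSA as well. Summed over 6 fibroblast genes, the level, as CPM of the library total, was 60.0, 99.8 and 73.8 CPM under TSA, against 9.61, 11.5 and 26.3 CPM in untreated cells. Of the 6, 5, 1 and 3 reached 1 CPM under TSA and 2, 1 and 1 in untreated cells. COL1A1 made up most of it at 37.8, 98.1 and 69.9 CPM under TSA, while COL1A2 was at 0 in HCT116 and DCN at 0 in A549 under TSA. COL3A1 was lower under TSA in MHCC97H, at 0.41 CPM against 2.25 CPM, and higher in A549 and HCT116. The pan-leukocyte gene PTPRC stood at 0.615, 0.135 and 0.47 CPM under TSA, against 0.0624, 0.0639 and 0.0614 CPM in untreated cells. The 5 leukocyte markers, PTPRC among them, summed to 24.7, 25.7 and 26.1 CPM under TSA, against 12.6, 16.8 and 19.0 CPM in untreated cells, and 3, 3 and 2 of them reached 1 CPM under TSA against 1, 2 and 1. The 4 endothelial markers summed to 44.0, 10.7 and 8.2 CPM under TSA, against 63.6, 2.43 and 3.68 CPM in untreated cells, with 3, 3 and 2 at 1 CPM against 2, 1 and 1. Within that list CDH5 was at 0 in each untreated library and PECAM1 stood at 21.9 CPM under TSA against 47.7 CPM untreated in MHCC97H, so its members differed in direction. The 5 epithelial markers summed to 4146, 3537 and 5162 CPM under TSA, against 5603, 4301 and 3168 CPM in untreated cells, and 4, 5 and 5 reached 1 CPM in both groups. KRT8 had 2765, 2360 and 1930 CPM under TSA against 4093, 2618 and 1601 CPM in untreated cells, whereas KRT19 had 686, 257 and 2611 CPM against 324, 82.4 and 625 CPM. The part of other cell types in the muscle genes was not tested.

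Levels between members can be compared per transcript length, in the authors' RPKM. TPM2 led every group, at 132 ± 35.4 RPKM (SD, n = 3) under TSA and 270 ± 33.4 RPKM in untreated cells. MEF2D and TNNT1 overlapped behind it, at 27.7 ± 16.2 and 33.7 ± 6.18 RPKM under TSA and 14.2 ± 1.6 and 39.1 ± 37.0 RPKM in untreated cells, followed by TNNI3 and MEF2A. DES had 8.27, 3.15 and 2.75 RPKM under TSA. ACTBL2 had 2.79, 3.48 and 0.739 RPKM, below DES in MHCC97H and HCT116 and above it in A549, and ACTN2 had 0.799, 0.632 and 0.235 RPKM. Members with a mean of at least 1 RPKM numbered 12 under TSA, 8 under GSK126, 6 under S2101 and 8 in untreated cells. TTN, despite its many reads, had 0.764, 0.178 and 0.239 RPKM under TSA, since its transcript measures 109224 bases.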

How the data were processed

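Poly(A) RNA-seq of 12 libraries was used, 1 for each of 3 cell lines under TSA, GSK126, S2101 or no treatment. The deposited tables hold, per gene, a raw read count made by the authors and an RPKM value, which is the count per kilobase of the longest transcript scaled to library size, as the values of the deposited files show. Per the submitters' processing notes, the genome was GRCh38 (also written hg38). Which aligner, counter and strand setting made the counts is not given in the sources used here. An entry with no gene name in 11 tables was dropped, and 1 of 25648 genes, which is not listed in all 12 tables, was left out, leaving 25647.

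Counts were tested with edgeR 4.0.16 in R 4.3.3 (quasi-likelihood F test, TMM factors, filterByExpr), with condition and cell line as terms over all 12 libraries. Same-numbered samples pair because they are the same cell line. P-values were adjusted by Benjamini-Hochberg over all 16929 genes tested, and a change passed under 0.05. The test was checked on simulated data, in which only genes with more reads changed and each line changed alike. That check does not cover genes with few reads or lines that respond unequally. DESeq2 1.42.0, other normalisation and filters, other sample sets and left-out libraries were tried. RPKM served only to compare levels between genes. Intervals of read ratios are 95% counting intervals, and a fold against 0 reads uses a floor of 3 reads over the group.

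The members and lists were chosen with earlier results of these data known. Named with full values were the members that passed in any comparison, those switched on in a line, ACTN2 and the listed regulators, and from each other list up to 2 genes that rose and 2 that fell most.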

Additional observations from a re-analysis of the deposited data

Results flagged for a closer look

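TNNT1, the slow skeletal troponin T gene, moved in opposite directions under TSA in 2 of the lines. Its log2 ratio of TSA over untreated normalised CPM + 1 was 1.57 in MHCC97H and -1.06 in HCT116, a difference of 2.63, with -0.1 in A549. Each line has 1 library per condition, and the difference was not tested.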

How the results depend on the processing

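Dropping the cell line as a block left 0 members called for TSA against untreated cells, against GSK126 and against S2101. Fits on only the 6 libraries compared also gave 0 for each, and gave 2 for GSK126 against untreated cells, where DESeq2 gave 3. Leaving out a library or a whole line gave 0 to 15 members for TSA against untreated cells, 0 to 8 against GSK126 and 0 to 11 against S2101. These counts have no share of all genes beside them and are no result about the members. The causes were not tested. The mean gain in detected members over untreated cells under TSA was 13.3 at 0.1 CPM and 5.0 at 5 CPM; at 0.1 CPM it was 2.3 under GSK126 and 3.3 under S2101. Members at least 2-fold higher in all 3 lines numbered 5 under TSA and 1 under S2101 at a pseudocount of 0.25, and 0 under TSA at a pseudocount of 5. The shares of all genes at these pseudocounts are not given here, so it is open whether the members differ from other genes. The median log2 change of the members under S2101 was 0.41, and 0.27 without its A549 library. DESeq2 ended the TSA calls of MYBPC1 and TCAP against untreated cells. It added calls of TNNI3, TTN and MEF2D, and of ACTN3 and MYBPC2, which the filter had left out of the main test. No result reversed in any alternative run. TCAP, MYBPC1 and the 21 untested members had few reads, so their values are uncertain, and the part of sequencing depth was not tested.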
